A study of Mus musculus with 19 samples.

Results

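The profile described here is that of differentiated 3T3-L1 adipocytes that had received no added fatty acid. It rests on the 4 arrays labelled control, of 19 arrays in the series. The cells of these 4 arrays were given the vehicle alone, ethanol diluted in serum-free maintenance medium with 2% bovine serum albumin and insulin, for 48 h from day 8. The other 15 arrays come from cells given palmitic (PA, n = 4), palmitoleic (PMA, n = 4), stearic (SA, n = 4) or oleic acid (OA, n = 3) at 250 µM, and their values are not used here. All groups share the cell line, the cocktail of dexamethasone, isobutylmethylxanthine and insulin that induced differentiation, and the removal of serum on day 7. The labels call the 4 control samples biological replicates and give no dates or passages, so the spread below is that between these samples.

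3T3-L1 is a line of mouse embryonic fibroblasts committed to the fat lineage, and it is 1 established line kept in culture. Under hormones that raise glucocorticoid, cyclic AMP and insulin signals, confluent cells switch on the transcription factors C/EBP and PPARγ and fill with triglyceride droplets. A culture of this kind holds differentiated cells beside cells that stayed fibroblast-like, and an array of total RNA measures both at once. Fewer cells of a type and less RNA per cell cannot be told apart in such samples.

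Levels were log2 RMA values, the logarithm of the probe signal after the authors' background correction, normalisation and summary per probe set. Of 35556 probe sets on the array, 21218 carried exactly 1 gene symbol, and they stood for 18820 genes. Each gene was represented by its brightest probe set, and genes were ranked by the mean over the 4 control arrays, rank 1 being the brightest. Probe sets bind their targets with different strength, so a rank orders array signals and not transcript numbers. The size of this effect can be read from the 1386 genes with several probe sets, whose brightest and dimmest probe sets lay a median of 1.07 log2 units apart, with 95% of the gaps under 4.42.

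Genes were placed in 3 bands. The high band held the brightest 10% of genes, 1882 genes with a mean of 9.37 or more. The background level, 4.90, was the 95th percentile of 1170 sensory receptor genes (olfactory, vomeronasal and trace amine receptors), which were taken as background. The brightest of these receptor genes had 7.62. At or below the level of 4.90 lay 6237 genes (33.1%), termed near background, and the remaining 10701 genes (56.9%) formed the middle band. Counts of list members below are to be read beside these shares of all genes, 10% high and 33.1% near background. Another set of 114 genes not known from fat (keratin-associated proteins, beta-defensins, kallikreins, and the Prame and Speer families) put the background at 6.36, and 4016 genes lay between these levels. A middle gene under 6.36 is therefore above the first background but not the second. The last genes inside the high band were Psmd11, Rsl1d1 and Adamts5 at 9.37, and the first genes outside it, Cul1, Kxd1 and Ppp4r3b, also had 9.37. At the other edge Iqca, Capn12 and Olfr398 lay just above the background level and BC065397, Cdh18 and Kcnj11 just below it, all at 4.90. Within 0.1 log2 units of an edge lay 302 genes at the high edge and 820 at the background level.

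The 4 arrays were alike in their summaries after RMA, which equalises arrays. Their medians over all probe sets ran from 5.23 to 5.31, and RMA itself brings such medians together. Each pair correlated across probe sets with a Pearson r of 0.996 or 0.997, as a description of arrays that share their design. The probe sets differ widely in level, so this r does not measure how far single genes differed between arrays. The median SD of a gene over the 4 arrays was 0.0516 in the high band, 0.077 in the middle and 0.0824 near background. Of the 1882 high genes, 1789 lay among the brightest 10% on every array, and 12093 genes stood above background in all 4 arrays.

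The cells carried the 5 markers given for them, and all 5 were in the high band. Scd1, the stearoyl-CoA desaturase that puts the double bond into saturated acyl chains, was the third brightest gene, with 12.88, 12.89, 12.84 and 12.91 in control replicates 1 to 4. Fabp4, the fatty acid binding protein of adipocytes, followed at rank 14 with 12.42, 12.39, 12.37 and 12.42. Adipoq, which encodes the hormone adiponectin, was at rank 25 with 12.26, 12.24, 12.17 and 12.23. Each of these stayed within 0.1 log2 units over the arrays, far less than the gap between probe sets of a gene. Cd36, a fatty acid transporter of the cell surface, had 11.87, 11.91, 11.91 and 11.80 and rank 56. Plin1, the perilipin that coats the lipid droplet and gates lipolysis, had 11.44, 11.41, 11.47 and 11.41 and rank 167. On single arrays the rank of Scd1 was 3 throughout, that of Fabp4 ran from 12 to 15 and that of Cd36 from 51 to 70.

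**Figure D1:**
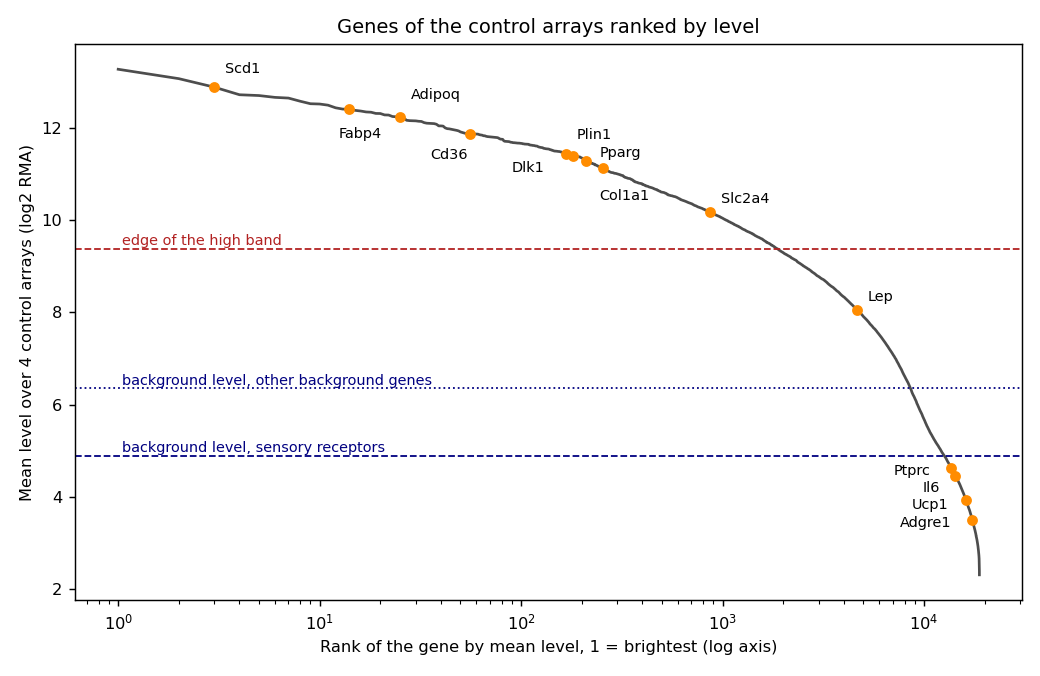
Mean log2 RMA level of all 18820 genes over the 4 control arrays against their rank (log axis), with the edge of the high band (9.37, red) and both background levels (4.90 dashed, 6.36 dotted, blue). Orange points are genes named in the text: Scd1, Fabp4, Adipoq, Cd36 and Plin1 lie in the high band, Lep at 8.06 in the middle, and Ucp1, Il6, Ptprc and Adgre1 under both background levels.

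Fat cell genes stood beside the most general genes of the cell at the top of the ranking. The brightest gene was Rn28s1, a ribosomal RNA, at 13.27 ± 0.02, followed by Gapdh at 13.06 ± 0.02 (SD, n = 4 here and below). Of the 25 brightest genes 5 were adipocyte markers, namely Scd1, Fabp4, Adipoq, Lpl at rank 12 and Cidec at rank 23. Lpl encodes lipoprotein lipase, which frees fatty acids from circulating triglyceride, and had 12.43, 12.52, 12.41 and 12.37. Cidec, which drives the fusion of lipid droplets, had 12.26, 12.26, 12.21 and 12.24. Scd2, the second desaturase isoform, was at rank 18 with 12.34 ± 0.01. The glycolytic enzymes Aldoa (12.36) and Ldha (12.31) were at ranks 16 and 19.

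Genes of matrix and cytoskeleton shared this range. Bgn, which encodes the proteoglycan biglycan, had 12.33, 12.46, 12.35 and 12.38 at rank 15. Sparc, a matrix protein that binds collagen, had 12.32, 12.41, 12.31 and 12.34, and Vim, the intermediate filament of mesenchymal cells, had 12.23, 12.36, 12.26 and 12.26. These values overlapped those of Fabp4 and Adipoq on the arrays. Actb (cytoplasmic actin, 12.52) and Lgals1 (galectin, 12.28) were also among the 25. The rest of the 25 were Eef1a1 (translation elongation, 12.66), Rpl39 and Rps6 (ribosomal proteins, 12.58 and 12.41), Fth1 (ferritin heavy chain, 12.51), Cox6c (cytochrome oxidase, 12.24), Mdm2 (12.31), the noncoding RNAs Rn7sk (12.72) and Rny3 (12.49), and the pseudogenes Gm6981 (12.70) and Gm12070 (12.64). The value of Fth1 depended on the probe set, since its other probe set had 7.36. For Gapdh 17 probe sets had values of 12.21 or more.

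Of 25 adipocyte markers measured, 19 (76.0%) were in the high band, 6 in the middle and none near background, beside 10% and 33.1% of all genes. Their median was 11.43, beside 5.94 for all genes. Gpd1, which makes the glycerol backbone of triglyceride, had 11.97, 11.93, 12.03 and 11.84. Retn, the gene of the hormone resistin, was the second brightest fat hormone at 11.79 ± 0.03. The marker with the lowest value was Nnat (neuronatin), with 4.89, 4.89, 4.92 and 4.97, on the background level itself. Cidea, a droplet protein best known from brown fat, had 5.61 ± 0.04, and Itih4, a secreted protease inhibitor, had 7.90 ± 0.07. Lep and Adig, 2 markers named after their values were seen, were lower than most. Lep, the gene of the hormone leptin, had 7.95, 8.09, 8.00 and 8.20 at rank 4632, in the middle band on every array. Adig, which encodes the small membrane protein adipogenin, had 9.90, 9.50, 9.82 and 9.92, so that its level was lowest in replicate 2. Cfd, Acsl1 and Adrb3 were listed as markers but were not analysed here, since no probe set carried their symbol alone.

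The regulators of the fat cell programme were mostly in the middle band. Of 29 measured, 5 (17.2%) were high, 24 middle and none near background, with a median of 7.88. Pparg, the nuclear receptor at the head of the programme, was the brightest with 11.32, 11.24, 11.29 and 11.29. Ebf1, a transcription factor that acts upstream of it, had 10.54 ± 0.05. Among the PPARs, Ppard had 10.26 ± 0.06 and Ppara 5.74 ± 0.08, so Ppara lay under the second background level. Among the C/EBP factors, Cebpa, the late factor, had 10.01, 9.86, 10.01 and 9.93, Cebpb had 8.44 ± 0.06 and Cebpd, an early factor of differentiation, 5.52 ± 0.03. Cebpa was thus above both early factors on every array, within the limit that these are different probe sets. Gata2, a zinc finger factor that holds preadipocytes back, had 5.66 ± 0.09, the second lowest value of the list after Cebpd.

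Brown and beige fat markers were spread over the bands in shares near those of all genes. Of 19 measured, 2 (10.5%) were high, 11 middle and 6 (31.6%) near background, beside 10% and 33.1% of all genes, and their median was 5.41, beside 5.94. The high members were subunits of cytochrome oxidase: Cox8b had 11.14, 11.07, 11.11 and 11.10, and Cox7a1 had 10.76, 10.75, 10.67 and 10.69. Ucp1, the uncoupling protein that defines heat-producing fat, had 3.95, 3.93, 3.88 and 3.97, under the background level on all arrays. Dio2, the deiodinase that activates thyroid hormone in brown fat, had 4.32 ± 0.09, and Zic1, a transcription factor of brown fat, 3.71 ± 0.11. Kcnk3, a potassium channel of thermogenic fat, had 9.08 ± 0.11 and was not in the high band. Ppargc1a, the coactivator of mitochondrial genes, had 8.07 ± 0.09 on its brightest probe set and 6.00 on the other.

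**Figure D2:**
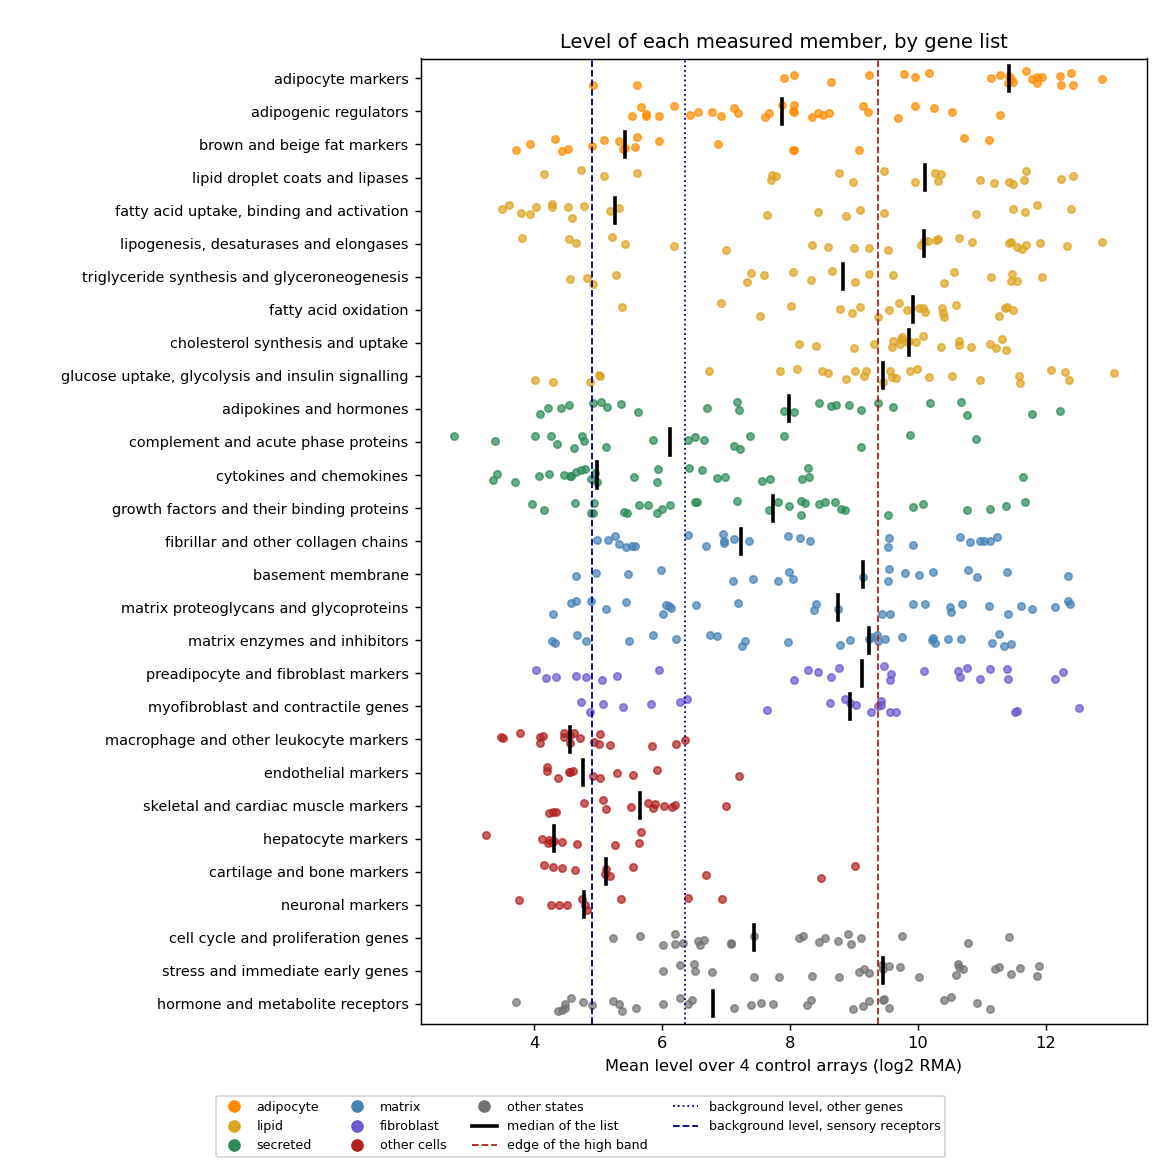
Mean log2 RMA level over the 4 control arrays (horizontal axis) of every measured member of 29 gene lists, 1 point per gene, with the median of each list as a black bar. The red line marks the edge of the high band (9.37) and the blue lines the background levels (4.90 dashed, 6.36 dotted); the medians run from 4.30 for hepatocyte markers to 11.43 for adipocyte markers, and no marker of another cell type passes the red line.

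The bright adipocyte genes differed among themselves in the bases before their start. Stretches of C followed by G, termed CG pairs, are dense at the starts of genes used in most cells. They were counted in the 250 bases before a RefSeq start of protein-coding genes (GRCm38.p6), a count chosen after the levels were seen. For a gene with several starts the one with the most pairs was taken, which raises the counts of such genes. Adipoq, Plin1 and Retn, 3 high markers picked for having 2 pairs or fewer, are printed beside Gapdh and Mdm2, which were brighter than each of them. The last 100 bases before the start are shown 5′ to 3′ on the gene's strand, with each CG pair in capitals.
Adipoq, chr16:23146436-23146535, plus strand: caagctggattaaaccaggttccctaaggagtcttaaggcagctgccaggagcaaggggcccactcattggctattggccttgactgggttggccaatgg
Plin1, chr7:79732777-79732876, minus strand: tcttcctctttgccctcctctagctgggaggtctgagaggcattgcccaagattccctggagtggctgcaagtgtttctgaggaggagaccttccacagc
Retn, chr8:3655670-3655769, plus strand: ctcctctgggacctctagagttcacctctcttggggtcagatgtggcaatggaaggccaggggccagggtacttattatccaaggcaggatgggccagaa
Gapdh, chr6:125165774-125165873, minus strand: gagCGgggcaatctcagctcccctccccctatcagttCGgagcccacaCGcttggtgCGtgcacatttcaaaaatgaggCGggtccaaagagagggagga
Mdm2, chr10:117710759-117710858, minus strand: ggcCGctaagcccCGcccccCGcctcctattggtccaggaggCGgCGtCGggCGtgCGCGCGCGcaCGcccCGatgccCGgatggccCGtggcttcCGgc
In these 100 bases Adipoq, Plin1 and Retn have 0 CG pairs, Gapdh has 5 and Mdm2 has 16. Over 250 bases the counts were 0 for Adipoq, 1 for Plin1, 2 for Retn, 8 for Gapdh and 29 for Mdm2. The motif is CG, which reads the same on the other strand.

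A sequence was found for 14476 of 17891 protein-coding genes. Among them the median was 18 pairs for 1528 high genes, 16 for 8367 middle genes and 3 for 4581 genes near background. A count of 5 or fewer was found in 97 high genes (6.35%), against 4349 (30.0%) of all. Sparc had 4, Cd36 had 3 and Retn 2, so these were among the few bright genes with a sparse start. The 73 high genes of the lipid lists with a sequence included 7 (9.59%) with 5 pairs or fewer. The regulators of the fat programme had a median of 23 pairs, the ribosomal proteins 18, the fatty acid oxidation genes 12, and the adipokines and the droplet genes 10 each. The adipocyte markers with a sequence were mixed. Pparg had 38 pairs, Cebpa 22 and Lipe 18, the highest counts among them, while 8 of 16 had 5 pairs or fewer. The counts of Pparg and Lipe are the largest over 3 and 2 starts. Which start these cells used was not measured. A tally over these markers is void, because 16 of 25 (64.0%) had a sequence, fewer than the 80% required. A count of pairs is a description of these letters and was not set against methylation or binding, which were not measured.

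The 7 lists of lipid and glucose metabolism held 163 measured genes, of which 90 (55.2%) were high, 53 middle and 20 (12.3%) near background. In the list of uptake, binding and activation, 6 of 22 measured genes (27.3%) were high, 6 middle and 10 (45.5%) near background, beside 10% and 33.1% of all genes, with a median of 5.25. Of 9 fatty acid binding proteins, Fabp4 and Fabp5 were high, Fabp3 was in the middle at 5.32 ± 0.22 and the others were near background. Fabp5, the epidermal form that adipocytes also use, had 11.50, 11.49, 11.48 and 11.51, but another of its 3 probe sets had 6.25. The genes Fabp7, Fabp12, Fabp1, Fabp2, Fabp6 and Fabp9, known from brain, retina, liver, gut and testis, had means from 3.49 to 4.28. Dbi, the acyl-CoA binding protein, had 11.68 ± 0.03 on the brightest of its probe sets. Among the acyl-CoA synthetases, which trap fatty acids in the cell, Acsl4 was high at 9.47 ± 0.06, Acsl5 had 7.63 ± 0.11 and Acsl6 was near background at 4.78 ± 0.08.

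In the list of droplet coats and lipases 13 of 22 genes were high, 7 middle and 2 near background, with a median of 10.11. Of the perilipins, Plin2, found on droplets of most cells, had 11.70, 11.64, 11.69 and 11.62. Plin1 and Plin4 had 11.43 ± 0.03 and 11.18 ± 0.03, Plin3 had 8.77 ± 0.08, and Plin5, known from oxidative tissue, had 5.08 ± 0.12. The 3 brightest perilipins kept this order on every array. Lipe, the hormone-sensitive lipase, had 11.69 ± 0.05 on the brighter of 2 probe sets and 9.13 on the other. Fitm1 and Lipg, a muscle droplet protein and the endothelial lipase, were near background at 4.72 ± 0.13 and 4.14 ± 0.07.

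In the lipogenesis list 16 of 27 genes were high, 8 middle and 3 near background, with a median of 10.10. Slc25a1, the mitochondrial carrier that exports citrate for fatty acid synthesis, had 11.92, 11.89, 11.94 and 11.88. Fads1, the delta-5 desaturase, had 11.70 ± 0.04. The stearoyl-CoA desaturases fell into 3 levels: Scd1 and Scd2 above 12, Scd3 at 9.00 ± 0.11 and Scd4 at 4.54 ± 0.11. Among the elongases, Elovl5 (10.16 ± 0.05) and Elovl1 (10.05 ± 0.06) were high, and Elovl6, which lengthens palmitate, was just under the edge at 9.23 ± 0.05. Elovl3 (5.41 ± 0.09) and Elovl4 (5.22 ± 0.10) were between the background levels, while Elovl7 (4.65 ± 0.16) and Elovl2 (3.81 ± 0.04) were near background. Fasn, Acly and Srebf1 are named after their values were seen. Fasn, the fatty acid synthase, had 11.71, 11.61, 11.61 and 11.59 and Acly, which makes cytosolic acetyl-CoA, had 10.61, 10.68, 10.68 and 10.62. Srebf1, a transcription factor that drives both, had 8.44, 8.32, 8.32 and 8.30, in the middle band.

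**Figure D3:**
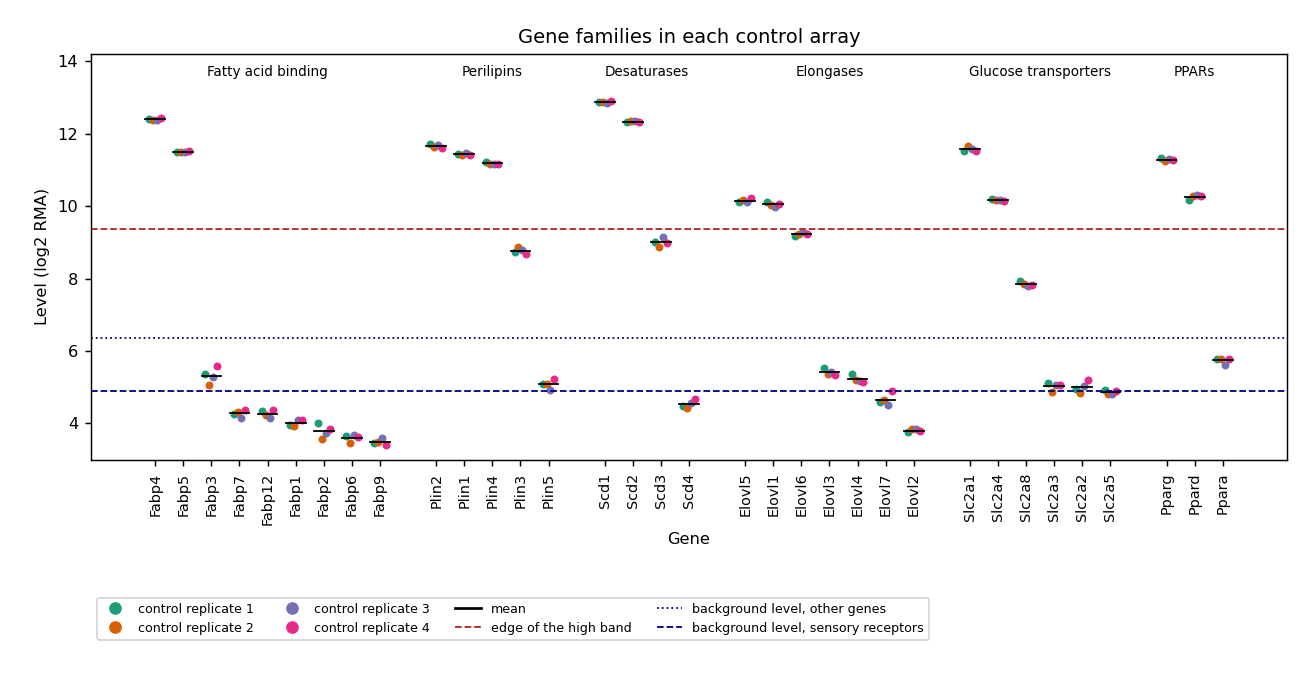
Log2 RMA level (vertical axis) of members of 6 gene families in each of the 4 control arrays (coloured points) with their mean (black bar), beside the edge of the high band (red) and the background levels (blue). The points of a gene lie close together, while members of a family range from Scd1 at 12.88 to Fabp9 at 3.49.

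Triglyceride synthesis and fatty acid breakdown were both measured well above background. In the synthesis list 8 of 20 genes were high, 10 middle and 2 near background, with a median of 8.83. Besides Gpd1, the brightest were Agpat2, which adds the second acyl chain, at 11.55 ± 0.04, and the acyltransferases of the last step, Dgat1 and Dgat2, at 11.47 ± 0.06 and 11.47 ± 0.07. Dgat1 had 11.49, 11.51, 11.51 and 11.38, and Dgat2 had 11.55, 11.41, 11.49 and 11.41. These signals overlapped, within the limit that they come from different probe sets. Mogat1, of the monoacylglycerol route, had 4.56 ± 0.05. In the oxidation list 15 of 22 genes were high, 7 middle and none near background, with a median of 9.92. Hadh, a dehydrogenase of the mitochondrial cycle, had 11.55, 11.45, 11.52 and 11.45. Etfb and Crat, the electron acceptor of the cycle and the carnitine acetyltransferase, had 11.40 ± 0.05 and 11.37 ± 0.05. The dimmest were Acaa1a (7.53 ± 0.05), Cpt1c (6.92 ± 0.06) and Ehhadh (5.37 ± 0.12), of which Acaa1a and Ehhadh encode peroxisomal enzymes.

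Of 21 measured genes of cholesterol synthesis and uptake, 17 (81.0%) were high, 4 middle and none near background, beside 10% and 33.1% of all genes. The median of the list was 9.86. Insig1, which holds the sterol sensor in the endoplasmic reticulum and is itself a sterol-regulated gene, had 11.37, 11.44, 11.38 and 11.36. Sqle (11.31 ± 0.07), Msmo1 (11.22 ± 0.05) and Fdft1 (11.12 ± 0.04), enzymes of the sterol pathway, followed. The list spanned little, and its lowest members, the kinases and decarboxylase of the mevalonate steps Mvk (8.99 ± 0.06), Mvd (8.40 ± 0.04) and Pmvk (8.14 ± 0.07), were still far above both background levels.

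For glucose, 15 of 29 genes were high, 11 middle and 3 near background, with a median of 9.45. The transporter Slc2a1, which works without insulin, had 11.53, 11.67, 11.57 and 11.53. The insulin-responsive transporter Slc2a4 had 10.21, 10.17, 10.16 and 10.15, under Slc2a1 on every array, and both were high. Slc2a8 had 7.84 ± 0.06, whereas Slc2a3 (5.03 ± 0.12), Slc2a2 (5.01 ± 0.15) and Slc2a5 (4.86 ± 0.06) lay on or near the background level. Pgk1, a glycolytic kinase, had 12.09 ± 0.04. Hk3 and Irs4, a hexokinase of blood cells and a member of the insulin receptor substrate family, were near background at 4.29 ± 0.11 and 4.02 ± 0.10.

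Of 104 secreted genes measured, 16 (15.4%) were high, 60 middle and 28 (26.9%) near background, with a median of 6.51. These figures were not far from those of all genes, 10% high, 33.1% near background and a median of 5.94. Of 26 adipokines and hormones measured, 7 were high, 15 middle and 4 near background, with a median of 7.98. After Adipoq and Retn came Vegfa, the vascular growth factor, with 10.76, 10.76, 10.78 and 10.76, and Nampt, an enzyme of NAD synthesis that is also secreted, with 10.67 ± 0.06. Rbp4, the carrier of retinol, had 4.42 ± 0.10, and the adiponectin-like proteins C1qtnf2 and C1qtnf9 had 4.21 ± 0.10 and 4.09 ± 0.09. Among complement and acute phase proteins 2 of 20 were high, 10 middle and 8 near background. These were Orm1, an orosomucoid, with 10.94, 10.88, 10.97 and 10.85, and Hp, haptoglobin, with 10.06, 9.72, 9.75 and 9.96. Lcn2, lipocalin, had 9.31, 9.19, 8.81 and 9.11, lowest in replicate 3, and its SD of 0.21 was larger than the 95th percentile of SDs in the middle band, 0.17. Apcs (4.02 ± 0.07), Crp (3.38 ± 0.12) and Saa2 (2.74 ± 0.10), acute phase proteins known from liver, closed the list.

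Cytokines and chemokines had the lowest median of the 4 secreted lists, 4.98. Of 27 genes, 1 (3.70%) was high, 14 middle and 12 (44.4%) near background, beside 10% and 33.1% of all genes. Mif, a cytokine present in most cells, was the high one with 11.68, 11.67, 11.59 and 11.67. Cx3cl1 (8.29 ± 0.06), Ccl7 (8.27 ± 0.13) and Csf1 (8.19 ± 0.03) came next, chemokines and a growth factor of monocytes. Csf2 (3.69 ± 0.06), Cxcl2 (3.41 ± 0.04) and Il10 (3.35 ± 0.06) were the dimmest. Ccl2, Tnf and Il6 are named after their values were seen, as the factors most often measured in fat inflammation. Ccl2, the monocyte chemokine, had 7.09, 6.83, 7.11 and 6.89, while Tnf had 4.57, 4.52, 4.62 and 4.58 and Il6 had 4.36, 4.52, 4.44 and 4.52, both under the background level on each array.

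Of 34 growth factors and binding proteins, 7 were high, 23 middle and 4 near background, with a median of 7.74. Igfbp7 and Igfbp4, binding proteins of the insulin-like growth factor family, had 11.68 ± 0.03 and 11.38 ± 0.03. Igf2, a fetal growth factor, had 11.15, 11.06, 11.15 and 11.19. Sfrp1 and Sfrp4, secreted inhibitors of Wnt signals, were near background at 4.63 ± 0.18 and 4.16 ± 0.09, as was Bmp2 at 3.96 ± 0.05.

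Of 100 measured matrix genes, 41 (41.0%) were high, 50 middle and 9 (9%) near background, beside 10% and 33.1% of all genes. The matrix genes had a median of 8.35. Of 26 collagen chains, 9 were high, 17 middle and none near background. The chains of collagen VI, a microfibril network of fat tissue, were all high: Col6a3 had 11.25, 11.27, 11.22 and 11.24, Col6a1 had 11.03 ± 0.02 and Col6a2 had 10.82 ± 0.07. Of the fibril-forming chains, Col1a1 had 11.12, 11.15, 11.16 and 11.09, Col1a2 had 10.97 ± 0.03 and Col3a1 had 10.60, 10.67, 10.70 and 10.67. Col5a2 (8.32 ± 0.04), Col5a1 (8.15 ± 0.04) and Col5a3 (7.35 ± 0.04), which set the diameter of fibrils, were in the middle band. In collagen IV, the sheet of the basement membrane, Col4a1 and Col4a2 had 9.54 ± 0.03 and 9.54 ± 0.06, Col4a5 had 7.13 ± 0.05, and Col4a3 and Col4a4 had 5.53 ± 0.08 and 5.15 ± 0.12. Col2a1, the chain of cartilage, had 6.69 ± 0.11, and Col10a1, of hypertrophic cartilage, 4.97 ± 0.19.

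The basement membrane list had 9 of 19 genes high, 9 middle and 1 near background. Nid1, the linker nidogen, had 11.38, 11.48, 11.37 and 11.39. Fbln2, a fibulin, had 10.92 ± 0.07, and Dag1, the dystroglycan that anchors cells to laminin, had 10.79 ± 0.05. Of the laminin alpha chains, Lama1, the embryonic form, was near background at 4.65 ± 0.08 and Lama3 and Lama5, known from epithelia, had 4.96 ± 0.04 and 5.46 ± 0.04. Lama4, named after its value was seen, is the alpha chain around adipocytes and had 10.01 ± 0.04.

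Among proteoglycans and glycoproteins of the matrix, 14 of 29 were high, 11 middle and 4 near background, with a median of 8.75. Fn1, fibronectin, had 12.10, 12.21, 12.08 and 12.16 at rank 31, and Postn, periostin, had 11.79 ± 0.06. Fbn2 (fibrillin, 4.64 ± 0.07), Kera (keratocan of the cornea, 4.57 ± 0.24) and Acan (aggrecan of cartilage, 4.30 ± 0.09) were near background. Of 29 enzymes and inhibitors, 12 were high, 13 middle and 4 near background. P4hb and Plod1, which modify collagen in the endoplasmic reticulum, had 11.46 ± 0.06 and 11.27 ± 0.06, and Pcolce, which helps to trim procollagen, had 11.35 ± 0.02. Mmp2, a gelatinase, had 11.12, 11.22, 11.21 and 11.10, while Mmp13 (4.67 ± 0.04), Mmp10 (4.32 ± 0.05) and Mmp12 (4.27 ± 0.09) were near background.

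Markers of preadipocytes and fibroblasts were present beside those of fat cells. Of 26 measured, 13 were high, 8 middle and 5 near background, with a median of 9.12. Dlk1, known as Pref-1, a membrane protein of preadipocytes that is lost when they differentiate, had 11.40, 11.41, 11.47 and 11.31 at rank 181. This is next to Plin1 at rank 167, and the values of both overlapped on the arrays. Dcn, the proteoglycan decorin, had 11.42 ± 0.08. The receptors Pdgfrb and Pdgfra, named after their values were seen, mark mesenchymal progenitors and were both high. Pdgfrb had 10.14, 10.09, 10.06 and 10.10, and Pdgfra had 9.42, 9.53, 9.47 and 9.47, close to the edge of the band. Dpp4 (4.34 ± 0.10), Cd34 (4.17 ± 0.09) and Nes (4.03 ± 0.14), surface and filament markers of progenitors in tissue, were near background. Matrix genes are made by fibroblasts and by adipocytes, and 6 genes of the fibroblast list also stand in a matrix list, so these counts overlap.

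The contractile genes of myofibroblasts were spread over the bands. Of 21 measured, 8 (38.1%) were high, 11 middle and 2 (9.52%) near background, beside 10% and 33.1% of all genes. The cytoplasmic forms Actb, Actg1 (11.54 ± 0.09) and Tpm4 (11.52 ± 0.10) led, followed by Cald1, which binds actin and tropomyosin, at 9.66 ± 0.06. Tagln (5.07 ± 0.10), Cnn1 (4.86 ± 0.17) and Actg2 (4.73 ± 0.05), of smooth muscle, were the dimmest. Acta2, the smooth muscle actin used as the marker of myofibroblasts and named after its value was seen, had 9.17, 9.00, 8.96 and 9.00, under the edge of the high band in each array. The smooth muscle genes of the list were therefore not all dim.

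None of 77 measured markers of leukocytes, endothelium, muscle, liver, cartilage, bone and neurons was in the high band. Near background were 41 (53.2%), and 7 were above the second background level of 6.36. Of all genes 10% were high, 33.1% near background and 45.5% above 6.36. In the leukocyte list 12 of 19 were near background and none passed 6.36. Adgre1, the macrophage marker F4/80, had 3.55, 3.52, 3.46 and 3.50, and Mrc1 and Ms4a1, of macrophages and B cells, had 3.78 ± 0.09 and 3.48 ± 0.03. Ptprc, the pan-leukocyte marker, named after its value was seen, had 4.66, 4.64, 4.60 and 4.59. The brightest were Cd68 (6.35 ± 0.07) and the lysozymes Lyz1 (6.22 ± 0.07) and Lyz2 (5.84 ± 0.09), whose near-identical sequences make their signals uncertain.

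The 7 markers over 6.36 were led by Sox9, a transcription factor of cartilage that is also known from other progenitors, with 9.06, 9.11, 8.84 and 9.07, and Alpl, the alkaline phosphatase of bone, with 8.60, 8.29, 8.46 and 8.56. The others were Flt1, a receptor of vascular growth factor, at 7.19 ± 0.07, Mb, myoglobin, at 6.99 ± 0.20, Snap25, of nerve endings, at 6.94 ± 0.11, Col2a1, and Map2, of neurons, at 6.40 ± 0.16. Besides Flt1 no endothelial or liver marker passed 6.36, and 6 of 12 endothelial and 8 of 11 liver markers were near background. The same held for 7 of 10 neuronal markers. For muscle the count was 4 of 14 (28.6%) and for cartilage and bone 4 of 11 (36.4%), close to the 33.1% of all genes. Tek and Kdr, endothelial receptors, had 4.20 ± 0.04 and 4.19 ± 0.09, and Cyp7a1, the rate-limiting enzyme of bile acid synthesis, had 3.23 ± 0.03. Of 47 keratin genes, a family set apart after levels were seen, none was high and 24 (51.1%) were near background. Among all genes these shares were 10% and 33.1%.

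Genes of the cell cycle were all above background, with 3 of 23 (13.0%) high and 20 middle, and a median of 7.44. Among all genes 10% were high and 33.1% near background. Ccnd2, a cyclin of the early cycle, had 11.47, 11.40, 11.41 and 11.39, and Cdkn1a, the inhibitor p21, had 10.74, 10.84, 10.75 and 10.84. Pcna, the clamp of DNA polymerase, had 9.75 ± 0.06. Mcm3 (6.02 ± 0.03), Bub1 (5.65 ± 0.10) and Birc5 (5.23 ± 0.12), of replication and mitosis, were the dimmest and lay between the background levels. Mki67, the common marker of dividing cells and named after its value was seen, lay there as well with 6.24, 6.33, 6.20 and 6.05.

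Stress genes were frequent in the high band, with 15 of 27 (55.6%) high, 12 middle and none near background, and a median of 9.46. All genes had 10% high, 33.1% near background and a median of 5.94. Hspa8 (11.90 ± 0.07) and Hspa5 (11.87 ± 0.03), chaperones of the cytosol and the endoplasmic reticulum, were the brightest. Mt2, a metallothionein that binds zinc, had 11.45, 11.61, 11.66 and 11.68, lowest in replicate 1, and Hmox1, haem oxygenase, had 11.46 ± 0.08. The immediate early genes Ier3 (6.49 ± 0.08), Fosb (6.28 ± 0.14) and Fos (6.01 ± 0.15) were the dimmest of the list. With no second condition, these levels carry no statement on whether the cells were stressed.

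Of 32 receptors for hormones and metabolites, 7 (21.9%) were high, 18 middle and 7 (21.9%) near background, beside 10% and 33.1% of all genes. Their median was 6.79. Ghr, the growth hormone receptor, had 11.10, 11.14, 11.15 and 11.12. The adiponectin receptors Adipor2 and Adipor1 had 10.93 ± 0.05 and 10.42 ± 0.04, and Tnfrsf1a, a receptor of tumour necrosis factor, had 10.52 ± 0.05. Lepr, the leptin receptor, had 3.74, 3.72, 3.64 and 3.72, the lowest of the list, and Thrb and Glp1r, receptors of thyroid hormone and of a gut hormone, had 4.38 ± 0.17 and 4.43 ± 0.07. The receptor for tumour necrosis factor was thus high where its ligand Tnf lay near background. Hcar2 and Ffar4, named after their values were seen, sense ketone bodies and long fatty acids. Hcar2 had 9.56, 9.59, 9.54 and 9.52 in the high band, and Ffar4 had 9.35, 9.19, 9.13 and 9.25, just under it. The beta-adrenergic receptors were listed but were not analysed here.

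Noncoding RNAs were frequent among the most variable genes. Among the 12093 genes above background in every array, 14 of the 15 with the largest SD were noncoding RNAs and 12 were annotated as small nucleolar RNAs, which guide the chemical modification of ribosomal RNA. Among the 50 with the largest SD, 26 were noncoding and 23 protein-coding. Snord33 had 8.53, 8.02, 9.15 and 9.18, and Snord49b had 10.34, 9.65, 10.72 and 10.65. Rny1, a Y RNA, had the largest SD, 0.645, with 6.53, 6.33, 7.53 and 7.54. In 13 of the 15 genes the lowest value was that of replicate 2. These included Snord49a, Snord73b, Snord53, Snord35a, Snord47, Snord118, Snora34, Gm26504, Snord35b and Snord87, with SDs from 0.366 to 0.548. The 2 exceptions were Snora70, lowest in replicate 1, and AB010352, whose biotype is not given and which had 5.40, 6.19, 5.45 and 5.62, highest in replicate 2.

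The same order was seen over the whole class. Of 43 small nucleolar RNAs above background, 35 were lowest in replicate 2 and 28 were highest in replicate 4. Their median deviation from the mean of the 4 arrays was -0.25 in replicate 2 and 0.20 in replicate 4. Of 303 genes with the RefSeq biotype of microRNA hairpins, 85 were above background. Among these 85 hairpins 51 were lowest in replicate 2, with a median deviation of -0.10. Highest in replicate 1 were 44 of the 85, and 19 were highest in replicate 4. Of 135 long noncoding RNAs above background, 56 were lowest in replicate 2, with a median deviation of -0.03. Protein-coding genes deviated by a median of 0.01 in replicate 2 and -0.02 in replicate 4. Of 12218, 3095 were lowest in replicate 2, 4062 lowest in replicate 4 and 4262 highest in replicate 2. Small nucleolar RNAs and protein-coding genes thus differed in this respect among arrays that carry the same label. RNA yield and fragment size were not measured on these arrays, and their part was not tested.

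**Figure D4:**
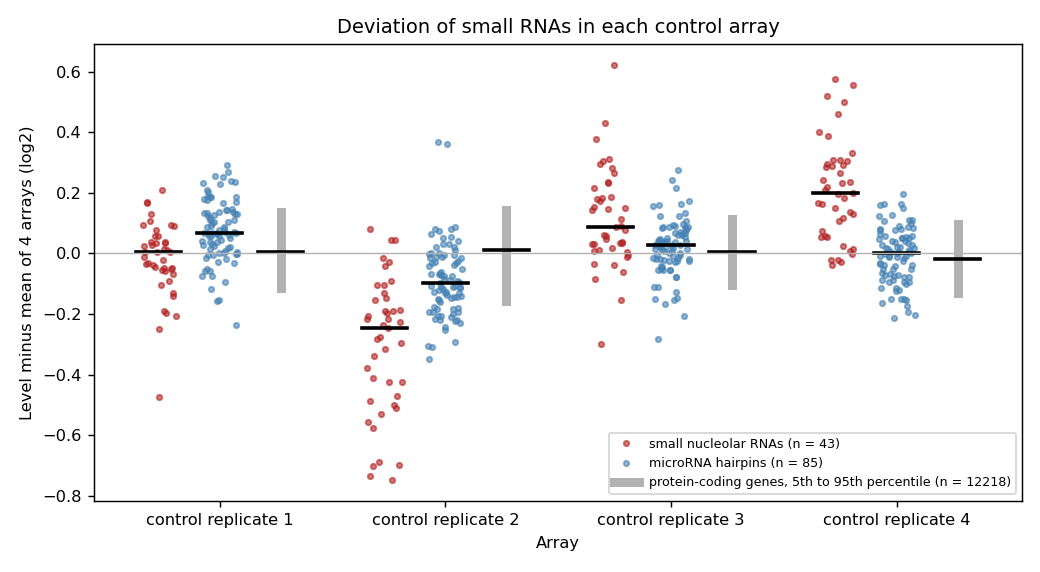
Deviation of each small nucleolar RNA (red, n = 43) and microRNA hairpin (blue, n = 85) above background from its mean over the 4 control arrays (log2, vertical axis), by array, with medians as black bars and the 5th to 95th percentile of 12218 protein-coding genes as grey bars. Small nucleolar RNAs sit low in replicate 2 (median -0.25) and high in replicate 4 (median 0.20), while protein-coding genes centre on 0 in all arrays.

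Mdm2 stood at rank 20. It encodes the ubiquitin ligase that holds the tumour suppressor p53 low, and had 12.28, 12.35, 12.29 and 12.31. Its neighbours on the chromosome, in the gene order of RefSeq, were examined after this value was seen. Directly beside it Slc35e3, a transporter of the solute carrier family, had 12.09, 11.93, 11.95 and 11.86 at rank 46. Nup107, a nuclear pore protein, had 9.71, 9.91, 9.86 and 9.94, and Rap1b, a small GTPase, had 11.27, 11.43, 11.39 and 11.39. On the other side Cpm, a carboxypeptidase, had 5.74 ± 0.07, but Cpsf6, of messenger RNA processing, had 9.91 ± 0.06, and beyond it came 3 dimmer genes, Lyz1, Lyz2 and 9530003J23Rik, with 5.84 to 6.32. Further out Yeats4 and Cct2 had 10.72 ± 0.08 and 11.70 ± 0.04, and Lrrc10 had 5.33 ± 0.06. Mdm1 on the far side of Rap1b had 7.35 ± 0.10 and Iltifb 3.70 ± 0.08.

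Ranked by the median of 5 adjoining genes, the runs from Cpm to Rap1b and from Mdm2 to Mdm1 took places 5 and 6 of 17807 runs, with 11.37. Places 1 to 4, at 11.43, were taken by overlapping runs around Fads3, Fads2 and Fads1, desaturase genes that lie side by side. The 4 runs all hold Fads2 and Fads3, and that from Fth1 to Fads2 does not hold Fads1. Fads2 had 11.43, 11.52, 11.43 and 11.42, and Fads3 had 11.40, 11.48, 11.47 and 11.38. These runs share genes and were found by searching, so their places are a description. The copy number of either region was not measured.

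**Figure D5:**
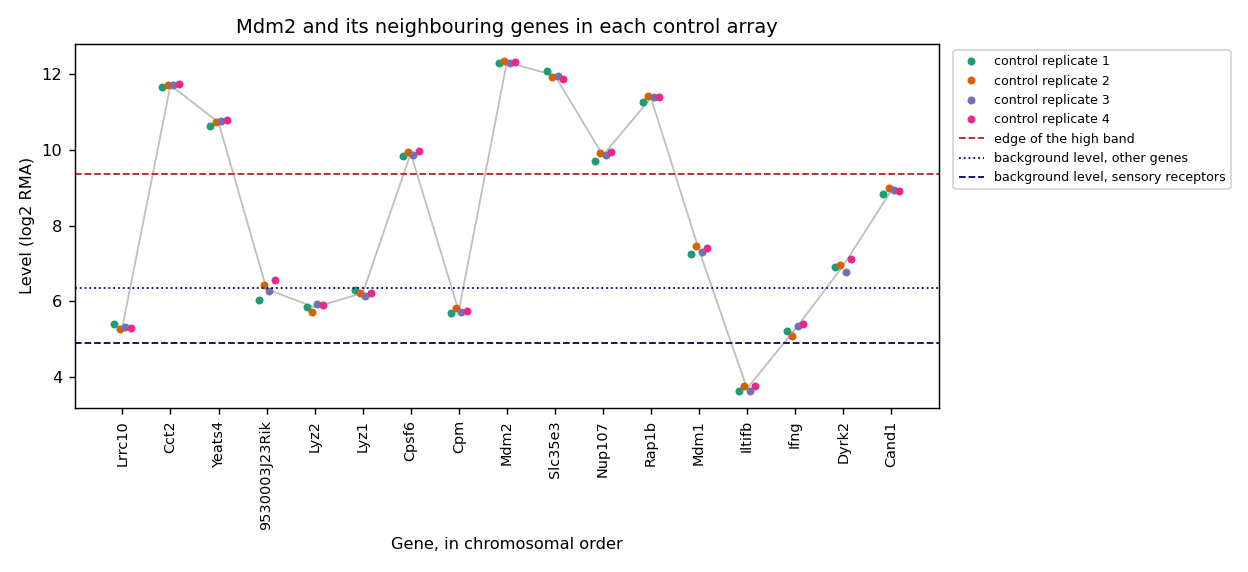
Log2 RMA level (vertical axis) of Mdm2 and the 8 genes on each side of it in chromosomal order, with 1 point per control array, a grey line through the means, the edge of the high band (red) and the background levels (blue). Mdm2, Slc35e3, Nup107 and Rap1b form a row of 4 high genes, between Cpm at 5.74 and Mdm1 at 7.35.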

How the data were processed

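The authors deposited log2 expression values per probe set, and the submitters' processing notes name RMA, R 2.15.0 and affy 1.34.0. RMA corrects background, equalises the arrays and summarises probes, which narrows differences between arrays. Labelled RNA came from 100 ng of total RNA with an integrity number above 9, per the labels. Original scan files were not used, so the background level comes from the sensory receptor genes and not from the scanner's own background. Precision is limited to what 4 arrays give.

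The columns of the 4 control arrays were read from the deposited table. Probe sets with several symbols (1881) or not listed in the annotation (12457) were left out of the ranking. For each gene the brightest probe set was kept, and its mean, SD and rank were computed with pandas 2.3.3 and numpy 2.4.6 in Python 3.11.15. Bands and background levels are defined in the text. With 1 group there is no comparison between conditions, and no test between groups was run. Dixon's test for 1 outlying value among the 4 control arrays was run on 268 gene levels and array summaries (critical value 0.829).

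The members, the 29 lists and the rule for named genes were chosen with earlier results of these data known. The rule names the 5 markers, the 25 brightest genes, the 4 brightest and 3 dimmest members of a list, members of small families and the 15 most variable genes; a gene outside it is said to be named after its value was seen. Of 666 list entries 605 were measured. Alternatives were each array left out, other probe sets per gene, the median over arrays, cyclic loess (limma 3.58.1 in R 4.3.3), other background levels and other widths of the high band. Scripts were tested on simulated data.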

Additional observations from a re-analysis of the deposited data

Results flagged for a closer look

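For 16 of 268 gene levels and array summaries tested, 1 of the 4 control arrays stood far from the other 3 by Dixon's test. This test sets the gap of the outlying value against the whole range. Chance alone gives such a gap in about 1 in 20 sets of values. In most cases the whole range was small, and the array that stood apart differed from gene to gene.

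Replicate 1 was high for Cidea (5.67, others 5.59) and Plin4 (11.23, others 11.17), and low for Ppard (10.16, others 10.28 to 10.30) and Rps6 (12.37, others 12.41 to 12.42). Replicate 2 was high for Adamts5 (9.51, others 9.31 to 9.33), which placed this gene at the edge of the high band, and for Fads2 (11.52, others 11.42 to 11.43). It was low for Col2a1 (6.53, others 6.73 to 6.75) and Kcnj11 (4.53, others 4.97 to 5.05), a gene whose mean lay at the background level. Replicate 3 was low for Mif (11.59, others 11.67 to 11.68) and Ppara (5.62, others 5.77 to 5.79) and high for Vegfa (10.78, others 10.76). Replicate 4 was low for Acaa1a (7.46, others 7.55 to 7.57), Col4a1 (9.49, others 9.55 to 9.56) and Dgat1 (11.38, others 11.49 to 11.51), and high for Ier3 (6.61, others 6.45) and Il10 (3.45, others 3.32 to 3.33). Of these differences that of Kcnj11 was the largest.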

How the results depend on the processing

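There were 14 alternatives and 19 values (levels, counts per band and the rank of the dimmest of the 5 markers). Of 266 recomputed values, 243 stayed within the limits set (the spread between arrays, or 1.5 times a count) and 23 moved. Part of the 243 could not move, so the tally does not measure stability. Another high band leaves the background level, the near-background counts and the marker rank unchanged. Another background level leaves the high counts and the marker rank unchanged. Leaving out each array in turn kept 19 adipocyte markers high and put 0 to 1 of them near background; the marker concerned is Nnat, without replicate 4. The background level then ran from 4.87 to 4.91, and 97 to 99 of the 100 brightest genes were shared with the full set. Averaging probe sets left 84 shared, and taking the dimmest left 77. At the 90th percentile of the sensory receptors the background level was 4.56, with 18 secreted, 3 matrix and 3 fibroblast genes near background. At the 99th percentile it was 5.51, with 1 adipocyte marker, 10 brown and beige markers, 19 matrix and 11 fibroblast genes near background. With the other background genes it was 6.36, with 2 adipocyte markers, 13 brown and beige markers, 32 lipid, 49 secreted, 28 matrix and 14 fibroblast genes and 70 markers of other cell types near background. With a high band of 5%, 10 secreted and 13 fibroblast genes were high, and with 20%, 25 secreted genes and 2 markers of other cell types. Ranking among the genes above background only, 13 fibroblast genes were high, since the band then holds fewer genes. The average or dimmest probe set per gene, the median over arrays and cyclic loess moved none of the 19 values past these limits. No paired analysis was possible because the profile has 1 group and no test between groups. Signal near background and the affinity of probe sets limit what a level shows.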

Other observations

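Genes of 3 general cell functions were grouped by symbol after levels were seen. Of 66 cytosolic ribosomal proteins 59 were high and 7 middle, with a median of 11.16, and 15 of them were among the 100 brightest genes. Of 75 genes of the respiratory chain (complexes 1 and 3 to 5), 56 were high, 17 middle and 2 near background, with a median of 10.39. Of 38 proteasome subunits 17 were high, 20 middle and 1 near background, with a median of 9.26. These families have many pseudogenes, and probe sets of the same gene can differ widely: Rpl12, a ribosomal protein, had 12.15 on its brightest of 8 probe sets and 6.01 on its dimmest, and Cycs, cytochrome c, had 12.04 and 4.91. Both were named after their values were seen. Of the 364 high genes with several probe sets, 13 had at least 1 probe set near background.

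Probe sets outside the ranking also gave signal. Of the 12457 not listed in the annotation 4862 (39.0%) were above the background level of 4.90, and 736 reached the range of the high band. Of the 1881 with several symbols 1063 (56.5%) were above background and 250 reached the high range. Among 306 microRNA hairpins, here grouped by symbol and not by RefSeq biotype, 2 were high, 85 middle and 219 near background, with a median of 4.00.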
